A study of Triticum aestivum with 15 samples.

Results

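The drought response of the flag leaf was compared between the winter wheat cultivars TAM111 and TAM112 at grain filling. For each locus the dry minus wet change of TAM111 was subtracted from the dry minus wet change of TAM112, and this response difference was read in the 8 libraries collected 100 days after transplanting. The 4 groups were TAM111 under the wet treatment (fully irrigated), TAM111 under the dry treatment (water deficient), TAM112 wet and TAM112 dry, with 2 libraries each, out of 15 libraries in the series. Every library was made from total RNA of flag leaves pooled from 4 plants, so a library is a pool and not 1 plant. The wet groups are the controls of each cultivar, and a difference in response is tied to the cultivar as a whole, not to 1 gene.

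Values were FPKM (fragments scaled by transcript length and by the number of mapped fragments), summed over the entries that fell on 1 locus of the merged transcript catalogue. Of the 122017 loci in the catalogue, 110167 carried the name of a reference gene, 44008 of these had an FPKM above 0 in at least 6 of the 8 libraries, and 43762 were tested after 246 loci with a lost entry were left out. A response difference is on the log2(FPKM + 1) scale throughout, positive where the change from wet to dry was more positive in TAM112. The added 1 makes changes of loci with low FPKM look smaller than they were. In pooled leaf RNA, fewer cells of a type and less RNA per cell cannot be told apart.

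The flag leaf supplies much of the sugar that fills the wheat grain. When water is short, leaf cells make abscisic acid (ABA), whose signal passes through protein phosphatases 2C and SnRK2 kinases, and they accumulate proline, dehydrins and other late embryogenesis abundant (LEA) proteins that protect membranes and enzymes. Heat stress transcription factors switch on chaperones, which refold damaged proteins. Bread wheat carries 3 related genomes (A, B and D), so most of these genes exist as homoeologous copies on the chromosomes of 1 group.

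The libraries of a group resembled each other with a correlation across loci between 0.911 and 0.928. One library stood apart. Of 95 loci that were read in TAM111 alone at heading (FPKM of at least 1 in its libraries and at most 0.1 in those of TAM112), TAM111 wet replicate 1 had 73.7% present at grain filling, against 88.4% to 94.7% in the other 3 TAM111 libraries and 0% to 5.26% in those of TAM112. Of 16 loci read in TAM112 alone at heading, the same library had 56.2% present, against 31.2% to 37.5% in the other TAM111 libraries. The counts of dry minus wet and response difference calls, and the list medians that turn sign without this library, are also given without it. Counts of loci differing between the cultivars under each treatment, and of responses without overlap, appear only as ranges over left-out libraries. The catalogue names genes by identifier only, so the labelled tissue was not checked against markers of leaf cells.

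The dry treatment changed many loci in each cultivar, and the response difference passed the test at 2 loci. In TAM111, 651 loci were called between dry and wet (1.49% of the loci tested), 392 higher (0.896%) and 259 lower (0.592%) under the dry treatment. In TAM112, 1665 were called (3.8%), 1176 higher (2.69%) and 489 lower (1.12%). The response difference was called at 2 loci (0.00457%), 1 in each direction (0.00229% each; limma, adjusted p below 0.05), while 2489 loci (5.69%) had an unadjusted p below 0.05, with 1264 positive (2.89%) and 1225 negative (2.8%). Without TAM111 wet replicate 1, 52 loci were called in TAM111, 846 in TAM112 and 0 for the response difference. Over the full set of libraries, the response difference had a median of -0.01 and an interquartile range from -0.33 to 0.33 over all loci.

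The precision of 2 libraries a group was low for a difference of differences. The 95% interval of a response difference reached 1.02 to either side at the median locus. At 8690 loci (19.9%) the whole interval lay within 1 of zero, but this share leaned on loci of low FPKM, whose changes the added 1 compresses. Among the 14181 loci with a mean FPKM of at least 5, 1387 (9.78%) had such an interval. The interval lay wholly beyond 1 in size at 131 loci, before any adjustment for the number of loci tested. An exact permutation test of 2 against 2 libraries cannot give a p below 0.333, so no exact test is given for single loci.

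**Figure D1:**
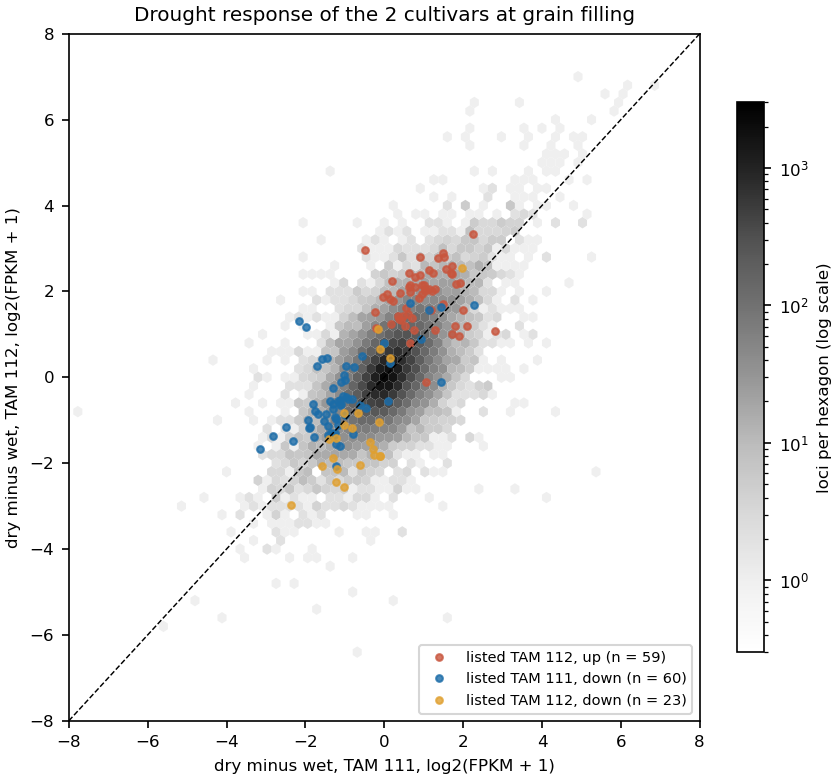
Each hexagon counts loci by their dry minus wet change in TAM111 (x axis) and in TAM112 (y axis), both on log2(FPKM + 1), and the dashed line marks equal changes. Coloured points are loci that the study's tables list for 1 cultivar only, and the loci listed as up in TAM112 lie mostly above the line, with a median change of 0.96 in TAM111 and 1.97 in TAM112.

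A set of 454 loci passed the dry minus wet call in each cultivar, and 453 of them kept 1 direction. Their signed median change was 1.84 in TAM111 and 1.88 in TAM112. The sets of this paragraph were not split into rising and falling loci, so a signed median does not measure how far loci moved. Passing in both cultivars also favours loci with similar changes, so whether the sizes of the responses were alike was not tested. None of these 454 loci (0) had a called response difference, and 42 had an unadjusted p below 0.05. Another 1211 loci were called in TAM112 alone, and 1144 of them had the same sign in TAM111. Their signed median changes were 0.76 in TAM111 and 1.60 in TAM112. Of these 1211 loci, 422 had an unadjusted p below 0.05 for the response difference. The 197 loci called in TAM111 alone had signed median changes of 1.17 in TAM111 and -0.07 in TAM112. Of these 197 loci, 173 had the same sign in both, so the value of -0.07 does not show that TAM112 lacked a response. The response difference had an unadjusted p below 0.05 at 113 of them. In each of these last sets 1 locus had a called response difference. Over all loci 5.69% had an unadjusted p below 0.05 for the response difference. Loci called in 1 cultivar and not in the other in this same fit are chosen for a difference between the responses. The counts of these last sets are therefore a description only.

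The gap between the cultivars itself was read under each treatment. Under the wet treatment 5 loci differed between TAM112 and TAM111 (0.0114%), 1 higher (0.00229%) and 4 lower (0.00914%) in TAM112, and under the dry treatment 147 differed (0.336%), 36 higher (0.0823%) and the others lower (0.254%) in TAM112. These counts rested partly on chromosome 1A, since without that chromosome 50 loci differed under the dry treatment and 2 under the wet treatment. The short arm of 1A is replaced by the rye arm 1RS in TAM112. The arms were not read apart, so the part of the short arm was not tested. For the response difference, 115 of 1692 loci on 1A (6.8%) had an unadjusted p below 0.05, against 5.69% over all loci. Chromosome 1A was second to 6B (7%) by this share, and it had the largest share of responses without overlap between the cultivars, 7.57% against 6.01% over all loci.

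The locus called with the more negative response difference was L_067438 (TraesCS4D01G342300) on chromosome 4D, part 2, 47882090 to 47896179, plus strand, in IWGSC RefSeq v1.0. Its summed FPKM was 1.97 and 1.86 in TAM111 wet, 2.39 and 2.64 in TAM111 dry, 105 and 103 in TAM112 wet, and 1.82 and 2.07 in TAM112 dry. The TAM112 wet libraries were far above the other 6, which lay close together. The response difference was -5.43 (95% interval -6.19 to -4.66; limma, adjusted p = 0.00854), from a change of 0.27 in TAM111 and -5.16 in TAM112.

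The high values of L_067438 came from a short transcript that was assembled in the TAM112 wet libraries alone. The entry that spanned the locus had an FPKM between 1.54 and 2.64 in all 8 libraries. In TAM112 wet replicate 1 a second entry of 225 bases at the end of the locus (47895953 to 47896177) had an FPKM of 103, and in replicate 2 an entry of 256 bases (47895922 to 47896177) had 102. The number of fragments implied by the confidence bounds of the FPKM, summed over entries, was 107 and 124 in TAM111 wet, 131 and 140 in TAM111 dry, 109 and 107 in TAM112 wet, and 92.6 and 105 in TAM112 dry. Scaled to the total fragments of each library, the response difference of L_067438 was -0.59 and was not called (limma, adjusted p = 0.89).

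The locus called with the more positive response difference was L_036716 (TraesCS3A01G016800) on chromosome 3A, part 1, 10686645 to 10885595, minus strand. Its FPKM was 247 and 260 in TAM111 wet, 0.227 and 0.116 in TAM111 dry, 0.675 and 1.3 in TAM112 wet, and 0.372 and 0 in TAM112 dry. TAM111 wet stood above every other library, and the response difference was 7.02 (95% interval 6.05 to 7.99; limma, adjusted p = 0.00854). Of this FPKM, 233 and 214 belonged to entries of 134 and 135 bases that ended at 10687341 and rested on 7 and 8 fragments, while the entry found in the TAM111 dry and TAM112 wet libraries began at 10882209.

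The implied fragments of L_036716 over all its entries were 22.7 and 25.9 in TAM111 wet, 1.28 and 0.471 in TAM111 dry, 4.09 and 8.94 in TAM112 wet, and 2.42 and 0 in TAM112 dry. The order of the groups was kept but the response difference was 1.47 and was not called (limma, adjusted p = 0.884). At heading, where TAM111 wet has 1 library, the same locus had an FPKM of 644 in that library and at most 1 in the other 6. Without TAM111 wet replicate 1 neither locus was called (limma, adjusted p = 0.0904 for each).

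Some of the next loci by p also differed between FPKM and fragments. L_108600 (TraesCS7B01G241100, chromosome 7B) had an FPKM of 463 and 440 in TAM111 wet, 265 and 333 in TAM111 dry, 156 and 147 in TAM112 wet, and 1260 and 1170 in TAM112 dry. TAM112 dry was highest, with a response difference of 3.60 that did not pass (limma, adjusted p = 0.175). The implied fragments ran the other way, with 125 in TAM111 wet replicate 2 and somewhat fewer in replicate 1, 776 and 911 in TAM111 dry, 561 and 475 in TAM112 wet, and 249 and 214 in TAM112 dry, and a response difference of -4.20 (limma, adjusted p = 0.000122). In the 4 libraries with the fewest fragments the entry ran from 448724051 to 448728049, and in the other 4 it reached past one or both of these positions. The direction at L_108600 therefore depended on the unit.

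L_099595 (TraesCS6D01G212000, chromosome 6D) had an FPKM of 24.5 and 31.0 in TAM111 wet, 45.4 and 66.0 in TAM111 dry, 25.4 and 30.5 in TAM112 wet, and 588 and 694 in TAM112 dry. The dry libraries of TAM112 held an extra entry of 190 and 185 bases with an FPKM of 545 and 637. Without that entry the longest entry of L_099595 had 43.8 and 57.3 in TAM112 dry, close to the 45.4 and 66.0 of TAM111 dry. Its response difference was 3.51 in FPKM (limma, adjusted p = 0.213) and -0.19 in scaled fragments.

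**Figure D2:**
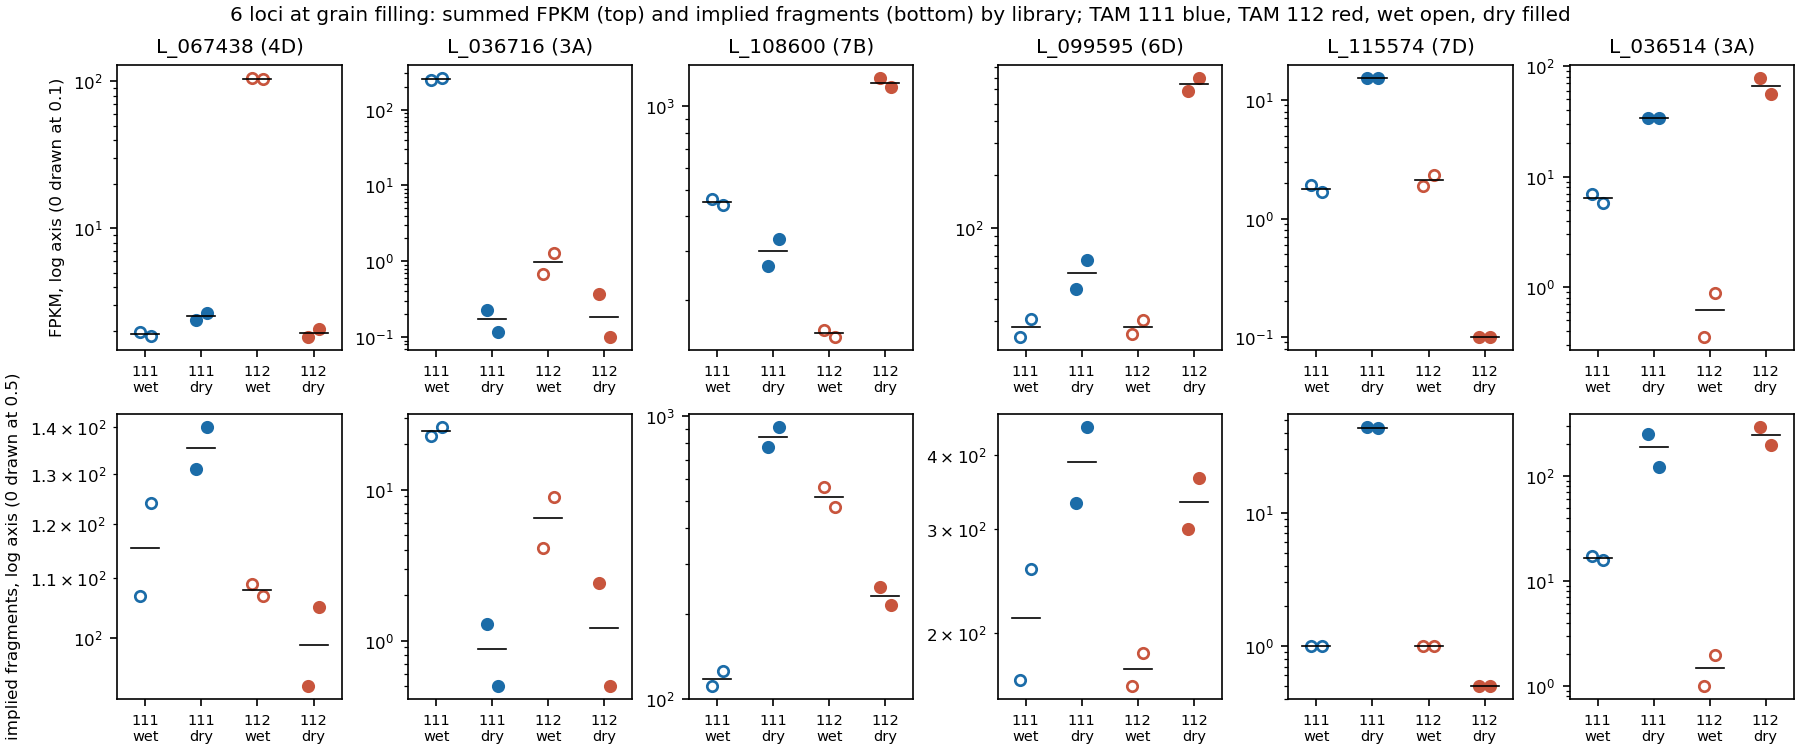
Summed FPKM (top row) and implied fragments (bottom row) of 6 loci in the 8 grain filling libraries, on log axes, with the mean of the 2 libraries as a bar. At L_067438 the FPKM of TAM112 wet is 105 and 103 while its fragments, 109 and 107, lie among those of the other groups, and at L_108600 the order of the groups is turned round between the rows.

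L_115574 (TraesCS7D01G137500, chromosome 7D, part 1, 88191270 to 88194766) kept its difference in both units. Its FPKM was 1.92 and 1.66 in TAM111 wet, 15.3 in both TAM111 dry libraries, 1.88 and 2.34 in TAM112 wet, and 0 in both TAM112 dry libraries. The fragments were 1 in each wet library of both cultivars, 43.9 and 43.3 in TAM111 dry and 0 in TAM112 dry. The response difference was -4.18 in FPKM (limma, adjusted p = 0.0706) and -4.40 in scaled fragments (adjusted p = 0.0583), so it fell just outside the threshold in both.

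L_020489 (TraesCS2A01G341000, chromosome 2A) was the mirror case, with the zeros in TAM111 dry. Its FPKM was 8.94 and 6.86 in TAM111 wet, 0 in both TAM111 dry libraries, 7.21 and 9.89 in TAM112 wet, and 14.8 and 22.3 in TAM112 dry. Its response difference was 4.16 in FPKM (limma, adjusted p = 0.165) and 4.24 in scaled fragments (adjusted p = 0.173). L_080483 (5D), L_043796 (3B), L_078280 (5B) and L_064801 (4D) completed the 5 smallest p-values in each direction and did not pass (limma, adjusted p between 0.134 and 0.506). The highest count of implied fragments in a library was 3 at L_043796, 10.2 at L_080483 and 13.1 at L_064801, and at L_078280 the response difference went from -3.67 in FPKM to 0.22 in scaled fragments.

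Over all loci the direction of the response difference was the same in FPKM and in fragments at 38040 (86.9%). Among the 64 loci with an unadjusted p below 0.001 it was the same at 56 (87.5%), and 42 of them had an unadjusted p below 0.05 in the same direction in fragments. Of the 64, 46 had responses of opposite sign in the cultivars, 13 had a group with both libraries at 0, and 15 had fewer than 10 fragments in every library.

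**Figure D3:**
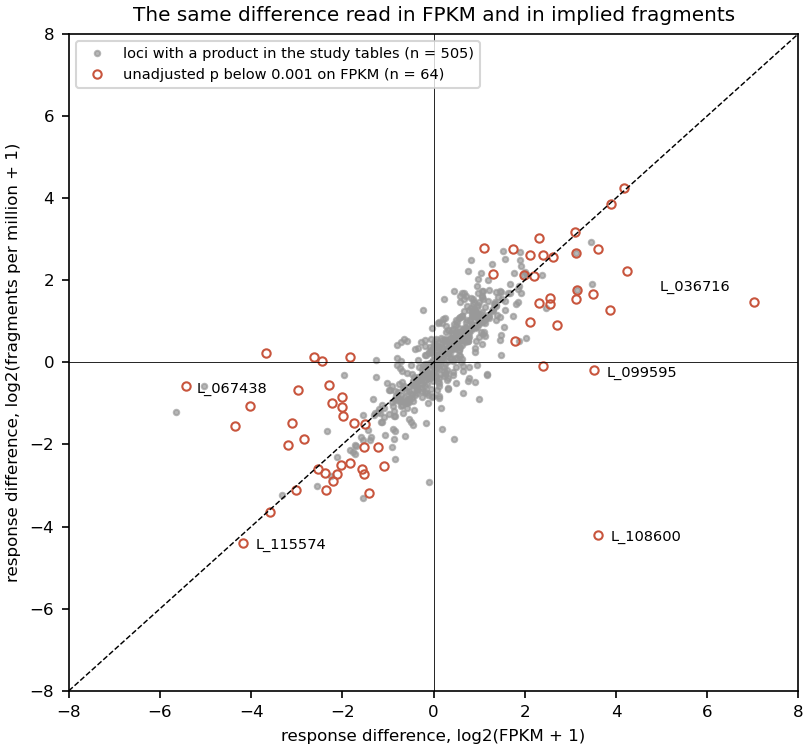
Response difference in log2(FPKM + 1) on the x axis and in log2(scaled fragments + 1) on the y axis, with the dashed line marking equal values. Grey points are the 505 tested loci with a product in the study's tables, red circles the 64 loci with an unadjusted p below 0.001 in FPKM, and L_067438, L_036716, L_099595 and L_108600 lie far from the line.

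In scaled fragments, an alternative added after these values were seen, the response difference was called at 5 loci, of which L_108600 is 1. The other 4 had the same direction in both units and are named here after their values were seen. L_091986 (TraesCS6B01G164800, chromosome 6B) had an FPKM of 68.9 and 101 in TAM111 wet, 34.9 and 31.0 in TAM111 dry, 15.9 and 26.9 in TAM112 wet, and 175 and 92.5 in TAM112 dry. It was lower under the dry treatment in TAM111 and higher in TAM112, with no overlap between dry and wet in either, and its response difference was 3.88 in FPKM and 3.86 in scaled fragments (limma, adjusted p = 0.00113 for fragments).

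L_102781 (TraesCS7A01G009800, chromosome 7A) was lower under the dry treatment in both cultivars and far lower in TAM112. Its FPKM was 212 and 179 in TAM111 wet, 35.3 and 85.4 in TAM111 dry, 353 and 242 in TAM112 wet, and 7.36 and 4.88 in TAM112 dry. The response difference was -3.58 in FPKM and -3.65 in scaled fragments (limma, adjusted p = 0.0468 for fragments). L_090883 (TraesCS6A01G383800, chromosome 6A) had 12.7 and 22.1 in TAM111 wet, 2.7 and 5.6 in TAM111 dry, 31.4 and 29.5 in TAM112 wet and 39.6 and 40.4 in TAM112 dry, so that only TAM111 was lower when dry. L_094170 (TraesCS6B01G266800, chromosome 6B) had 29.7 and 29.3, 12.1 and 6.92, 22.4 and 35, and 2.11 and 1.91 FPKM in the same order, with a response difference of -1.69.

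A looser count needed no model. At 2632 loci (6.01%) the 4 dry minus wet pairs of libraries of 1 cultivar all lay above the 4 pairs of the other, with a response difference of at least 1 in size. They were split into 1356 higher and 1276 lower in TAM112 (3.1% and 2.92%), and 2457 of them kept their direction in fragments.

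The study's tables give products for 694 loci that it called between dry and wet at heading, at grain filling or at both, and 505 of them were tested here. None had a response difference that passed. By unadjusted p below 0.05, 43 of the 505 were higher and 16 lower in TAM112, beside 2.89% and 2.8% of all loci. Without overlap of the libraries 50 were higher and 25 lower, beside 3.1% and 2.92% of all loci. The choice of these loci used the grain filling libraries along with those of heading. Neither their direction within a cultivar nor the size of their response difference is therefore independent evidence.

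The locus with the smallest p among them was L_036514 (TraesCS3A01G216800, chromosome 3A, part 1, 395757491 to 395761295), which encodes a chaperone of the DnaJ type, a co-chaperone that hands unfolded proteins to HSP70. Its FPKM was 7.01 and 5.72 in TAM111 wet, 33.8 and 34.0 in TAM111 dry, 0.353 and 0.886 in TAM112 wet, and 77.6 and 55.6 in TAM112 dry. By summed FPKM TAM112 was below TAM111 when wet and above it when dry. Neither gap passed (limma, adjusted p = 0.0768 wet and 0.308 dry). The longest entry overlapped when dry, at 33.8 and 18.1 in TAM111 and 42.6 and 15.5 in TAM112. Implied fragments also overlapped when dry, and TAM112 wet had only 1 and 1.99. The locus rose in both cultivars, by 2.25 in TAM111 and 5.38 in TAM112 (limma, adjusted p = 0.0196 and 0.000988), and the response difference of 3.13 (95% interval 2.18 to 4.08) did not pass (adjusted p = 0.371). Fragments gave 2.67, and at heading the response difference was 2.17.

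Dehydrins, hydrophilic proteins that bind membranes and enzymes in drying cells, were the product list with the most positive median. Of 15 listed loci 7 were tested, and all 7 had a response difference above 0, with a median of 0.93 and a range from 0.44 to 1.92. Over all loci tested 49.4% were above 0, but among loci that the study lists as up in both cultivars the share was 76.3%. A high share above 0 is therefore not particular to 1 product. The median dry minus wet change was 4.35 in TAM111 and 5.98 in TAM112. Under the dry treatment 5 of the 7 were called higher in TAM111 and 7 in TAM112, beside 0.896% and 2.69% of all loci. By limma, 0 of the 7 response differences were called and 3 had an unadjusted p below 0.05, beside 5.69% of all loci. Fragments gave a median of 0.89 with 7 of 7 above 0.

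Among the dehydrins, L_089799 (dehydrin 3, chromosome 6A) had an FPKM of 9.66 and 11.6 in TAM111 wet, 305 and 181 in TAM111 dry, 5.31 and 6.37 in TAM112 wet, and 406 and 456 in TAM112 dry. The libraries of the 4 groups did not overlap, and TAM112 was the lower cultivar when wet and the higher when dry. Its response difference was 1.64 (95% interval 0.62 to 2.65; limma, adjusted p = 0.797), and 1.68 in scaled fragments. The neighbouring L_089797 (dehydrin 5, 6A) was rare, with at most 0.17 FPKM in each wet library, 0.828 and 1.12 in TAM111 dry and 5.02 and 4.54 in TAM112 dry. It rose in TAM112 (2.39; limma, adjusted p = 0.00438) and had a change of 0.90 in TAM111, which did not pass, and its response difference of 1.49 shrank to 0.66 in scaled fragments.

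L_079533 (dehydrin 9, chromosome 5B) had 0 and 0.449 FPKM in TAM111 wet, 5.95 and 3.02 in TAM111 dry, 0.997 and 0 in TAM112 wet, and 25.8 and 19.6 in TAM112 dry. The copies of dehydrin 3 on 6B and 6D were nearer between the cultivars. L_094800 (6B) had 269 and 166 FPKM in TAM111 dry against 299 and 436 in TAM112 dry, and L_098330 (6D) had 655 and 387 against 785 and 858. Their response differences of 0.44 and 0.76 had 95% intervals from -1.96 to 2.83 and from -0.66 to 2.19, so a gap of 2-fold in either copy was within the interval. The wet libraries set part of this median, since without TAM111 wet replicate 1 the 7 dehydrins had a median of 1.66.

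Some dehydrins were outside the detection rule because they were at 0 in wet libraries. L_094799 (dehydrin 4, 6B) had 0.596 and 0 FPKM in TAM111 wet, 29.9 and 15.5 in TAM111 dry, 0 in both TAM112 wet libraries, and 175 and 104 in TAM112 dry. L_098329 (dehydrin 4, 6D) had 0 in all 4 wet libraries, 25.3 and 7.38 in TAM111 dry and 70.4 and 60.7 in TAM112 dry. When every locus above 0 in at least 1 library was tested (62141 loci), 12 dehydrins were included, 11 were above 0 and the median was 0.92, with 0 called (limma, adjusted p = 0.407 for L_094799). The added dehydrins entered mainly through their dry libraries, so their signs mainly compare dry levels. They are a description and not further evidence.

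LEA proteins were sensitive to the same rule. Of 14 listed loci 4 were tested, with 2 above 0 and a median of -0.43. One of them, L_026215 (chromosome 2B), had 0.963 and 1.71 FPKM in TAM111 wet, 10.1 and 22.4 in TAM111 dry, 1.85 and 1.27 in TAM112 wet, and 3.54 and 5.39 in TAM112 dry, so TAM111 was the higher cultivar when dry. The 9 loci added by the looser rule were all above 0, the median of 13 loci was 0.75, and 3 of the 9 had an unadjusted p below 0.05. These 9 loci were at 0 in most wet libraries and entered through their dry libraries. Their signs mainly compare the dry levels of the cultivars, so the counts are a description and not further evidence. Among them, L_003533 (chromosome 1A) had 0 in the 4 wet libraries, 10.3 and 6.99 in TAM111 dry and 21.1 and 18.5 in TAM112 dry. The median of the 4 tested LEA loci was 0.49 without TAM111 wet replicate 1 and 0.28 without TAM112 wet replicate 2, so its sign turned with 1 library.

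Loci of proline synthesis and breakdown were called higher when dry at 4 loci in TAM111 and 6 in TAM112, and lower at 2 in each. Over all loci the shares in TAM111 and TAM112 were 0.896% and 2.69% higher, and 0.592% and 1.12% lower. Of 10 listed, 9 were tested, 8 were above 0, the median was 0.43 and 0 had an unadjusted p below 0.05. Fragments gave a median of 0.02 with 5 of 9 above 0. The study designed PCR primers for 1 of these loci, L_049806, which encodes delta-1-pyrroline-5-carboxylate synthase 2 (P5CS2), the enzyme of the first committed step of proline synthesis, and for 2 other tested loci described further on. Their primers are printed because they mark the transcripts that a reader can measure directly.
L_049806 forward: gaaatggcgcttgacatag
L_049806 reverse: ctagttttgttcacccctgt
L_054218 forward: accaggacaaggagagcaat
L_054218 reverse: gatgacgccgatgatgaaa
L_074394 forward: ggctgctgccacgtagac
L_074394 reverse: gtggtgttgaaggtgtaatg

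L_049806 (P5CS2, chromosome 3D) had an FPKM of 0.852 and 1.14 in TAM111 wet, 232 and 198 in TAM111 dry, 0.989 and 3.46 in TAM112 wet, and 366 and 293 in TAM112 dry. It rose by 6.76 in TAM111 and 6.79 in TAM112, and the response difference was 0.03 (95% interval -1.25 to 1.31). The homoeologous copies on 3A (L_038670) and 3B (L_044951) had response differences of 0.47 and 0.63 in FPKM. In scaled fragments the values were 0.11 at L_038670, -0.08 at L_044951 and -0.33 at L_049806. Implied fragments are an estimate, and whether they track the transcript amount at loci of such high FPKM was not tested. Their dry libraries held 174 and 149 FPKM on 3A in TAM111 against 274 and 211 in TAM112, and 368 and 283 on 3B against 515 and 424. In each of the 3 copies the dry libraries of TAM112 lay above those of TAM111, while the wet libraries overlapped.

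Proline dehydrogenase 2, the mitochondrial enzyme that starts proline breakdown, fell in both cultivars. L_006157 (1B) fell by 2.77 in TAM111 and by 2.66 in TAM112, and L_011515 (1D) fell by 2.77 and by 2.34 (limma, adjusted p between 0.012 and 0.021). The response differences were 0.11 and 0.42, and -0.01 and 0.02 in scaled fragments.

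Loci of ABA synthesis and signalling had a median response difference of 0.08, with 11 of 19 tested above 0 (30 listed). L_030704 (chromosome 2D), a protein phosphatase 2C of the type that holds back the ABA signal, was the exception by p. It had 0.857 and 0.868 FPKM in TAM111 wet, 10.3 and 12.6 in TAM111 dry, 0.265 and 0 in TAM112 wet, and 22.3 and 17.4 in TAM112 dry. It rose in both cultivars and its response difference was 1.46 (95% interval 0.54 to 2.39; limma, adjusted p = 0.802). L_065068 (protein phosphatase 2C 30, 4D) rose in both too, with a response difference of 0.91 that was 0.24 in scaled fragments. The SnRK2 kinase locus L_019626 (SAPK1, 2A) had 5.88 and 29.2 FPKM in the 2 TAM112 wet libraries, and its response difference of -1.25 had an interval from -3.40 to 0.89 and was 0.05 in scaled fragments.

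**Figure D4:**
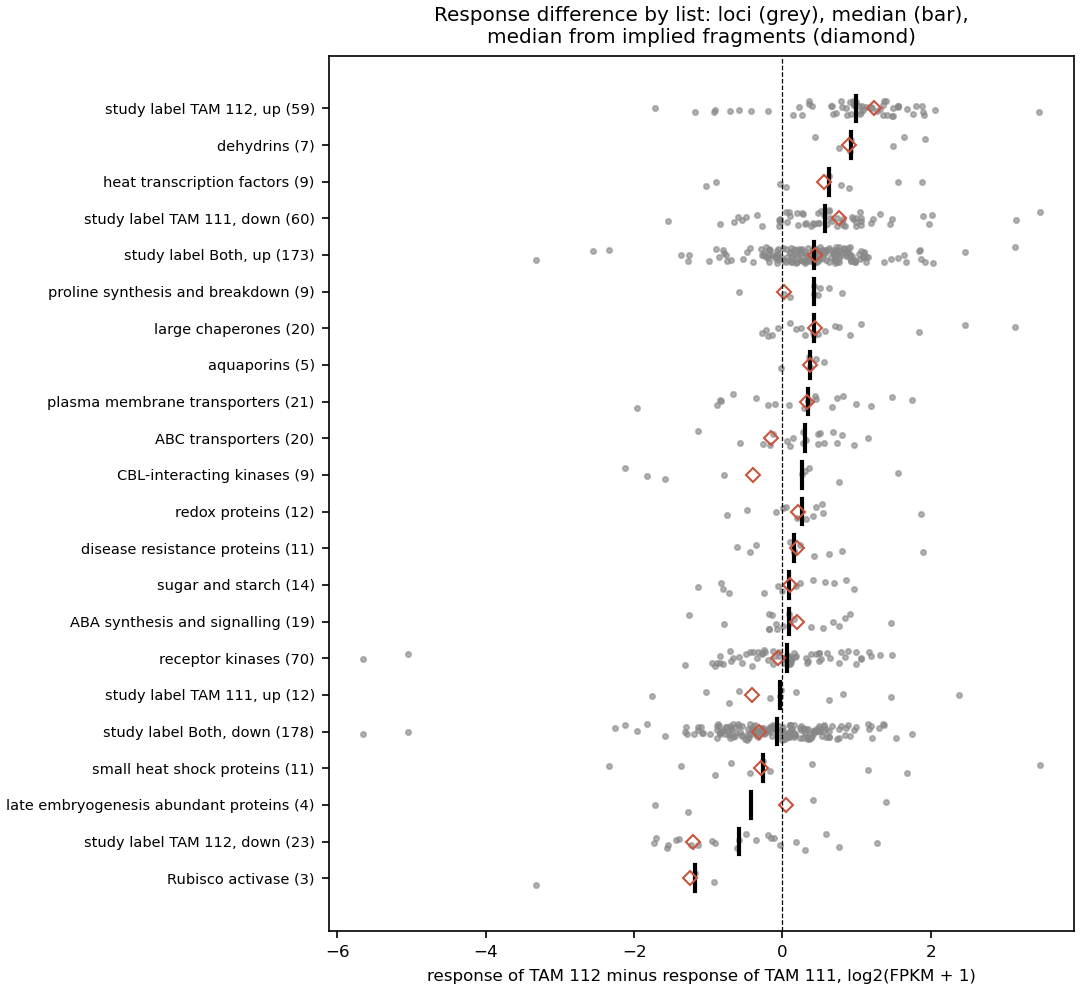
Response difference of each tested locus (grey points), its median per list (black bars) and the median from implied fragments (red diamonds), with the number of tested loci in brackets. Dehydrins have the highest median of the product lists (0.93) and Rubisco activase the lowest (-1.17), and proline loci move to 0.02 in fragments.

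Heat stress transcription factors bind the promoters of chaperone genes. Their list was drawn by product name and also took heat shock factors and multiprotein-bridging factors. It had a median of 0.63, with 6 of 9 tested loci above 0 (12 listed). The median was 0.12 without TAM112 dry replicate 1, 0.21 without TAM111 wet replicate 2 and 0.34 over the 10 loci of the looser rule. L_071720 (factor A-2e, chromosome 5A) had 11.8 and 13.5 FPKM in TAM111 wet, 14.9 and 11.6 in TAM111 dry, 4.52 and 10.7 in TAM112 wet, and 34.9 and 25.6 in TAM112 dry. The wet and dry libraries overlapped in TAM111 and were apart in TAM112, where the locus rose by 1.94 (limma, adjusted p = 0.04). Its response difference was 1.88 (95% interval 0.61 to 3.16) and 1.85 in scaled fragments, and did not pass (adjusted p = 0.805). L_073067 (factor A-2c-like, 5A) rose in TAM112 as well, from 0 and 0.496 to 3.58 and 3.99 FPKM, while TAM111 went from 0.189 and 0.329 to 1.28 and 0.224. The 3 copies of heat shock factor protein 7, L_104156 (7A), L_109528 (7B) and L_116288 (7D), had response differences of 0.90, -0.89 and 0.63.

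Large chaperones (HSP90, HSP70, ClpB and their helpers) were above 0 at 15 of 20 tested loci, with a median of 0.42 and 0.44 in scaled fragments. That share, 75%, was near the 76.3% of all loci listed as up in both cultivars. They were called higher under the dry treatment at 13 loci in TAM111 and 17 in TAM112, beside 0.896% and 2.69% of all loci. The median log2(FPKM + 1) of the list was 0.77 and 1.19 in TAM111 wet, 3.34 and 3.13 in TAM111 dry, 0.45 and 0.85 in TAM112 wet, and 3.69 and 3.53 in TAM112 dry. By this median the wet libraries of the cultivars overlapped, and both TAM112 dry libraries lay above both TAM111 dry libraries. Without TAM111 dry replicate 2 the median was 0.12. The locus with the largest value after L_036514 was L_039772 (ClpB1, 3A), at 2.46 with an interval from -0.06 to 4.99, where the 2 TAM111 wet libraries held 0.574 and 8.26 FPKM.

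Small heat shock proteins, which hold unfolding proteins in solution, did not follow the large chaperones. Their median was -0.26 with 4 of 11 tested loci above 0, and both directions held loci of low p. L_060474 (class I, chromosome 4B) had 0 in both TAM111 wet libraries, 14.3 and 7.06 in TAM111 dry, 0.884 and 2.26 in TAM112 wet, and 4.26 and 4.67 in TAM112 dry. It rose in TAM111 (3.47; limma, adjusted p = 0.0145), and its response difference was -2.34 (95% interval -3.66 to -1.01). L_113874 (mitochondrial, 7D) had 6.68 and 1.61 FPKM in TAM111 wet, 0 in both TAM111 dry libraries, 8.10 and 13.5 in TAM112 wet, and 59.0 and 12.5 in TAM112 dry. L_114139 (mitochondrial, 7D) was higher in TAM112 dry, at 9.31 and 10.2, than in the other 6 libraries, which held 1.73 to 5.94. With the looser rule all 37 listed loci were tested, 17 were above 0 and the median was -0.08.

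**Figure D5:**
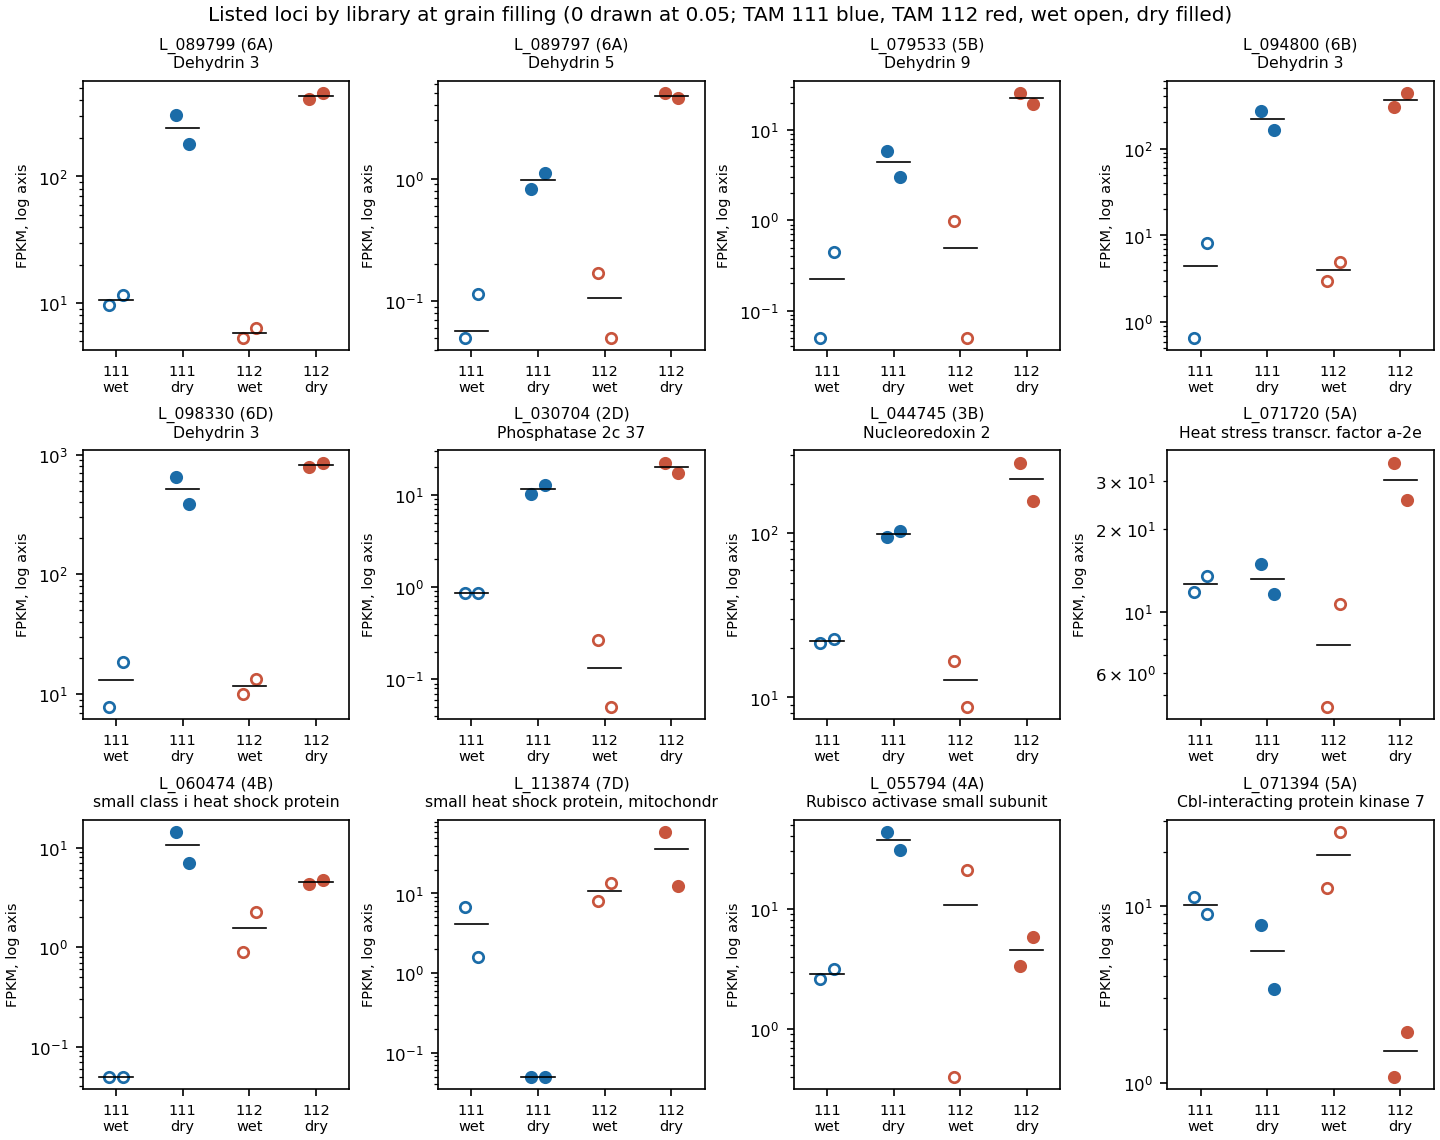
FPKM of 12 listed loci in the 8 grain filling libraries, on log axes, with the mean of the 2 libraries as a bar. The dehydrins reach their highest FPKM in TAM112 dry, L_071720 is high in TAM112 dry alone (34.9 and 25.6), and L_055794 is high in TAM111 dry (43.5 and 30.9).

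Redox proteins were above 0 at 9 of 12 tested loci (75%, beside 76.3% of loci listed as up in both cultivars), with a median of 0.26. L_044745 (nucleoredoxin 2, chromosome 3B), a thioredoxin-like protein, had 21.6 and 22.6 FPKM in TAM111 wet, 95.6 and 103 in TAM111 dry, 16.7 and 8.72 in TAM112 wet, and 270 and 158 in TAM112 dry. It rose in both cultivars, and its response difference was 1.87 (95% interval 0.64 to 3.10) in FPKM and 0.53 in scaled fragments. The copy on 3D (L_049618) rose too, with a response difference of 0.53.

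Rubisco activase, the chaperone that keeps the carbon-fixing enzyme active, had 3 listed loci that were all below 0. L_055794 (4A) had 2.59 and 3.13 FPKM in TAM111 wet, 43.5 and 30.9 in TAM111 dry, 0.40 and 21.1 in TAM112 wet, and 3.33 and 5.77 in TAM112 dry. The TAM112 wet libraries were far apart, and the interval of the response difference of -3.33 ran from -6.89 to 0.24. On 4B (L_060058) and 4D (L_064620) the same library, TAM112 wet replicate 1, was again the lowest of the 8. The list's median of -1.17 became 0.19 without TAM112 wet replicate 2 and -2.68 without replicate 1, so the direction turned with 1 library.

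CBL-interacting protein kinases pass calcium signals to ion transporters, and they held loci of both signs. L_071394 (kinase 7, 5A) had 11.2 and 8.95 FPKM in TAM111 wet, 7.75 and 3.37 in TAM111 dry, 12.6 and 26.0 in TAM112 wet, and 1.08 and 1.94 in TAM112 dry. It fell in TAM112 (by 2.96; limma, adjusted p = 0.0213) and had a change of -0.83 in TAM111. L_075856 (kinase 4-like, 5B) fell in TAM112 too (by 2.70; adjusted p = 0.0191), with -0.87 in TAM111. L_024447 (kinase 21, 2B) went the other way, with a response difference of 1.56 (95% interval 0.04 to 3.07). The list had 5 of 9 loci above 0 and a median of 0.26 in FPKM and -0.39 in scaled fragments.

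Sugar and starch loci were balanced, with 7 of 14 above 0 and a median of 0.09. L_054218 (sugar transport protein 13, chromosome 4A), a hexose importer of the plasma membrane, had 11.3 and 13.0 FPKM in TAM111 wet, 0.38 and 0.494 in TAM111 dry, 7.76 and 8.07 in TAM112 wet, and 0.558 and 0.992 in TAM112 dry. It fell by 3.19 in TAM111 and by 2.34 in TAM112, and the response difference was 0.85 (95% interval -0.03 to 1.73). The 4D copy (L_065262) had a response difference of 0.96. L_044222 (sucrose synthase 3, 3B), which splits sucrose for use in the cell, had one of -0.01 (95% interval -1.22 to 1.20), and L_057461 (sucrose:fructan 6-fructosyltransferase, 4A), which builds fructan and stands outside the list, had one of -1.66 (95% interval -3.39 to 0.08).

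Aquaporins, water channels of membranes, had a median dry minus wet change of -2.11 in TAM111 and -1.74 in TAM112. In each cultivar 2 loci were called lower, beside 0.592% of all loci in TAM111 and 1.12% in TAM112. Of 5 tested loci 4 had a response difference above 0. L_058763 (TIP1-1, a channel of the vacuolar membrane, 4A) had 170 and 165 FPKM in TAM111 wet, 41.6 and 37.7 in TAM111 dry, 106 and 109 in TAM112 wet, and 33.5 and 42.4 in TAM112 dry. The cultivars were apart when wet and overlapped when dry, and the response difference was 0.56 (95% interval -0.23 to 1.35).

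Receptor kinases were the largest list, with 70 of 100 loci tested, 40 above 0 and a median of 0.06, or -0.05 in scaled fragments. The median was -0.14 without TAM111 wet replicate 1. They were called lower under the dry treatment at 19 loci in TAM111 and 32 in TAM112, beside 0.592% and 1.12% of all loci. L_074394 (wall-associated receptor kinase 2, 5B), which senses cell wall pectin, had 17.8 and 6.37 FPKM in TAM111 wet, 0.824 and 1.16 in TAM111 dry, 13.3 and 11.9 in TAM112 wet, and 0.0588 and 0.472 in TAM112 dry. It fell in both cultivars, and the response difference was -0.88 (95% interval -2.36 to 0.61). L_036881 (Lr10-type, 3A) fell in TAM111 (by 2.48; limma, adjusted p = 0.012) and had -1.17 in TAM112, which did not pass. The largest value of the list, -5.65 at L_034615 (2D), came from 1 library, TAM112 wet replicate 1, with 2950 FPKM against 2.23 in replicate 2.

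The transporter and resistance lists had medians between 0.16 and 0.35. ABC transporters had 0.30 in FPKM and -0.15 in scaled fragments (20 tested), plasma membrane transporters 0.35 and 0.34 (21 tested), and disease resistance proteins 0.16 and 0.20 (11 tested). L_030952 (ABC transporter G 43, 2D) had a response difference of 1.16 in FPKM and -0.29 in scaled fragments, so its direction was not settled. L_116498 (lysine histidine transporter 2, 7D) fell in TAM111 (by 2.12; limma, adjusted p = 0.037) and had a change of -0.92 in TAM112.

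Other loci with a product that had low p were spread over many functions. No library had more than 5 implied fragments at L_014884 or more than 7 at L_065597. In scaled fragments the response difference of L_014884 was 1.77. Higher in TAM112 were L_078431 (5B, predicted protein) at 1.97, L_014884 (1D, Sm-like protein LSM8) at 3.15, L_065597 (4D, oxalate oxidase) at 1.76, L_017403 (2A, MYB factor EFM-like) at 2.01, L_029109 (2D, heavy metal-associated protein 27) at 1.67, L_068865 (5A, asparagine synthetase) at 1.90 and L_024227 (2B, GTP-binding protein OBGC1) at 1.5. Of these, L_068865 makes asparagine, a nitrogen store of stressed leaves, and had 0 and 0.122 FPKM in TAM111 wet, 1.84 and 0.405 in TAM111 dry, 0.306 and 0.257 in TAM112 wet, and 8.14 and 7.86 in TAM112 dry. It passed the test in TAM112 (2.81; limma, adjusted p = 0.0103), and its change of 0.92 in TAM111 did not pass. In scaled fragments the changes were 1.84 in TAM111 and 4.33 in TAM112, and the response difference kept its direction, at 2.49.

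Lower in TAM112 were L_085660 (5D, auxin-responsive protein IAA13-like) at -1.77, L_094187 (6B, WNK4 kinase) at -1.54, L_050840 (3D, peptide/nitrate transporter) at -1.96, L_003749 (1A, 16S rRNA processing protein) at -1.44, L_027139 (2B, Rubisco subunit-binding protein beta) at -1.73 and L_034268 (2D, pentatricopeptide repeat protein) at -1.55. L_027139, a chaperonin of the chloroplast, had 4.88 and 4.78 FPKM in TAM111 wet, 3.24 and 6.01 in TAM111 dry, 4.31 and 6.58 in TAM112 wet, and 0.693 and 0.896 in TAM112 dry. It fell in TAM112 (by 1.82; limma, adjusted p = 0.0335) and had a change of -0.10 in TAM111. L_003749, L_027139 and L_034268 had values of -1.65, -2.23 and -1.90 in scaled fragments, and L_050840 had -0.31. At L_085660 no library had more than 8 implied fragments.

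The 3 copies each of early responsive to dehydration 15 (ERD15) and of caleosin, a protein of lipid bodies, had response differences above 0. ERD15 on 3A (L_038738), 3B (L_045026) and 3D (L_051979) had response differences of 0.43, 0.86 and 0.73, and caleosin on 2A (L_020626), 2B (L_027421) and 2D (L_034129) had 0.71, 0.83 and 1.08. Every 95% interval of the 6 included 0. In the caleosin on 2D the dry libraries of the cultivars did not overlap, with 57.4 and 38.7 FPKM in TAM111 dry and 92.0 and 66.2 in TAM112 dry, and L_034129 was split into as many as 3 entries.

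Of the kinases named by locus number in the study's text, L_095893, L_024447 and L_081188 had an unadjusted p below 0.05, and none passed after adjustment. L_095893 (RIPK kinase, 6B) had 1.67 and 1.14 FPKM in TAM111 wet, 1.68 and 1.74 in TAM111 dry, 1.83 and 0.717 in TAM112 wet, and 14.9 and 5.85 in TAM112 dry. It rose in TAM112 (2.24; limma, adjusted p = 0.0412) and had 0.18 in TAM111, and its response difference was 2.06 (95% interval 0.57 to 3.54). The 6A copy, L_090655, had a response difference of -0.43, and L_066553 (HERK1) and L_081188 (male discoverer 2) had 1.06 and 0.95. L_102286 (7A), annotated as a pyruvate dehydrogenase, had 0.66. Of 17 loci of any product that the text names by number, 11 were tested. The NAC factor L_070049, outside the detection rule, had 1.25 and 0.425 FPKM in TAM111 dry and 11.3 and 2.79 in TAM112 dry.

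Loci that the study's tables assign to 1 cultivar were read as groups. The label picks loci called in that cultivar and not in the other, at heading, at grain filling or at both. The calls at grain filling used these same libraries, so the label favours the sign of the response difference, and the values are a description only. The 59 tested loci listed as up in TAM112 had a median response difference of 0.99, with 51 above 0 and 0 called. By unadjusted p below 0.05, 14 of these loci were higher and 1 lower, beside 2.89% and 2.8% of all loci. Their median log2(FPKM + 1) was 1.42 and 1.46 in TAM111 wet, 2.95 and 2.33 in TAM111 dry, 1.51 and 1.29 in TAM112 wet, and 3.63 and 2.92 in TAM112 dry, so TAM111 dry replicate 1 and TAM112 dry replicate 2 met. The 60 loci listed as down in TAM111 had a median of 0.58, the 23 listed as down in TAM112 had -0.58, and the 12 listed as up in TAM111 had -0.03. That last median was -0.41 in scaled fragments, -0.58 over the 19 loci of the looser rule and 0.11 without TAM111 wet replicate 1. Within these lists the cultivar left out of the label moved the same way by the median, with changes of 0.96 in TAM111 for the first, -0.62 in TAM112 for the second, -0.67 in TAM111 for the third and 0.86 in TAM112 for the last.

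Loci listed for both cultivars were not symmetrical between directions. The 173 tested loci listed as up in both had a median response difference of 0.43, with 132 above 0 (76.3%), and the 178 listed as down in both had -0.07, with 85 above 0 (47.8%). Fragments gave 0.43 and -0.31. Since the study's calls used these libraries along with those of heading, the values are a description and were not tested.

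At heading, 79 days after transplanting, the same difference was fitted to 7 libraries, as TAM111 wet has 1 there, and 0 loci were called by limma, with 2395 (5.47%) at an unadjusted p below 0.05. Of the 2 loci called at grain filling, L_036716 had the same sign (8.67) and L_067438 the opposite one (1.61). At heading L_067438 had 36.1 and 52.4 FPKM in TAM112 dry, 1.68 and 66.9 in TAM111 dry and at most 2.13 in the wet libraries. Of the 64 loci with an unadjusted p below 0.001 at grain filling, 36 kept their sign at heading (56.2%), against 51.4% of the other loci.

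Most product lists had a positive median at both stages. Dehydrins, large chaperones and heat transcription factors had 1.41, 1.31 and 1.02 at heading. The proline, ABA, sugar and starch, receptor kinase, redox, ABC transporter, disease resistance and plasma membrane transporter lists were positive at both stages too. Their medians at heading ran from 0.09 for disease resistance proteins to 0.92 for redox proteins. The sign differed between the stages in 5 product lists. At heading the medians were 0.87 for LEA proteins, 2.06 for small heat shock proteins, 2.59 for Rubisco activase, -0.38 for aquaporins and -0.66 for CBL-interacting kinases. The wet mean of TAM111 at heading is 1 library, so a value of that library enters all of these medians.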

How the data were processed

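Flag leaf RNA of 15 libraries was sequenced, and 8 libraries entered the main comparison. Per the study's methods the authors trimmed reads with Trimmomatic 0.38, aligned them with TopHat2 to IWGSC RefSeq v1.0, assembled each library with Cufflinks and deposited FPKM per assembled entry with its confidence bounds. No read counts were used here. Because each library was assembled by itself, entries of 1 gene differ between libraries, and a short entry can carry a high FPKM. Entries were placed on the loci of the merged catalogue with bedtools 2.31.1 and summed. Implied fragments were estimated from the bounds as the square of 2 FPKM over the distance from FPKM to its upper bound, and scaled by library total where tested; 71.2% to 72.2% of values under 20 lay within 0.1 of a whole number, and the bounds may hold other uncertainty. The fragments summed to 1.97 to 2.74 M per grain filling library. A depth estimated from the same bounds at long loci with 1 transcript was 6.69 to 8.84 M. Whether implied fragments fall short at loci of high FPKM was not tested.

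Differences were fitted with limma 3.58.1 (R 4.3.3; empirical Bayes with a trend) to log2(FPKM + 1) in all 8 libraries, with Benjamini-Hochberg adjustment over 43762 loci. Dry minus wet and cultivar calls also needed a change of at least 1. The steps were tested on simulated data. The labels give no source for replicate numbers, and p-values measure the spread between libraries; of 6 correlations between same-numbered deviations 1 exceeded 0.1, so the numbers were not taken as pairs. The members and lists were chosen with earlier results of these data known. Named were the 5 smallest p per direction, the 10 smallest per direction among loci with a product, homoeologous sets of the water deficit table, loci numbered in the study's text, and up to 3 per product list. Alternatives covered the pseudocount, detection, scaling, the libraries fitted, a block and each library left out; 2 were added after seeing the data. The authors' comparison columns were not used. Primer sequences came from the study's supplement.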

Additional observations from a re-analysis of the deposited data

Results flagged for a closer look

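L_036716 (3A) had a change from wet to dry of -7.76 in TAM111 and -0.74 in TAM112, and the test of their difference passed (7.02; limma, adjusted p = 0.00854). In scaled fragments the difference was 1.47 and did not pass.

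L_067438 (4D) had a change of 0.27 in TAM111 and -5.16 in TAM112, and the test of their difference passed (-5.43; limma, adjusted p = 0.00854). In scaled fragments the difference was -0.59 and did not pass.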

How the results depend on the processing

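The number of loci called for the response difference (2) was 5 with a pseudocount of 0.1, 4 with FPKM above 0 in at least 1 library, 1 with all 8 above 0, 4 with all 15 libraries fitted, 5 in scaled fragments, and 0 to 5 with 1 library left out. The TAM111 count (651) was 1134 with all 15 libraries, 1717 in fragments and 52 to 486 with 1 left out. The TAM112 count (1665) was 2571, 3426 and 331 to 1304 in the same order. The wet cultivar count (5) was 47 with a pseudocount of 0.1, 19 and 2 with the looser and stricter detection, 21 after quantile normalization, 95 with all 15 libraries, 2 without 1A, 53 with at least 10 fragments in 2 libraries, 200 in fragments, and 3 to 33 with 1 left out. The dry cultivar count (147) was 348, 96, 318, 50, 251 and 623 under looser and stricter detection, all 15 libraries, no 1A, the fragment minimum and fragments, and 12 to 182 with 1 left out. Responses without overlap (2632) numbered 5234 with a pseudocount of 0.1, 4119 in fragments, and 3986 to 5617 with 1 left out. With the replicate block the response difference was called at 2 loci, TAM111 at 496, TAM112 at 1715, wet at 3 and dry at 92.

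Scaled fragments turned the sign at 10 of 90 named loci, of which L_108600 (-4.20), L_099595 (-0.19), L_078280 (0.22) and L_030952 (-0.29) had an unadjusted p below 0.05 in FPKM. The cause was not tested. Of 1050 values of named loci under settings other than the block or a left-out library 1036 kept their sign, as did 693 of 720 with 1 library left out. Leaving out 1 library turned the median of LEA, ABA, aquaporin, sugar, receptor kinase, Rubisco activase and CBL kinase loci and of those listed as up in TAM111. With 2 libraries a group, few response differences could be resolved.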
